A study of Mus musculus with 16 samples.

Results

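The 10 genes Mat1a, Gnmt, Ahcy, Bhmt, Chdh, Pemt, Cbs, Cth, Shmt1 and Mthfd1 encode enzymes of the methionine cycle and of the one-carbon pathways that feed and drain it. They were taken by symbol from a table of 15544 genes measured by RNA-seq in 16 female mouse livers, and all 10 were in the table and among the 12704 genes tested. Control females carried Esr1 fl/fl alleles without Cre, and mutant females carried the same floxed alleles with the Nkx2-1Cre driver, which removes oestrogen receptor alpha from Nkx2-1-lineage cells of the hypothalamus. Nkx2-1 is also expressed in other ventral forebrain regions, thyroid and lung, so the driver is not restricted to a single neuron type. Females of each genotype ate either chow or a high fat diet (HFD, for 17 weeks), all were aged 27 weeks, and each of the 4 groups had 4 libraries. The strain background was mixed (CD-1;129P2) in all groups. Values are TPM (transcript abundance per length, scaled to the library) adjusted by the authors' size factors (a unit inferred from the study's methods and the column totals), and differences are on the log2(value + 1) scale.

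The liver holds the body's main capacity for methionine breakdown. Methionine is activated to S-adenosylmethionine, the general methyl donor. After the methyl group is passed on, homocysteine is left, and it is either remethylated with a methyl group from betaine or folate, or drawn off through transsulfuration into cystathionine and cysteine. Choline, the precursor of betaine, is supplied by the diet and by methylation of phosphatidylethanolamine, which itself uses S-adenosylmethionine.

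Hepatocyte markers summed to at least 57512 adjusted TPM in every library, and adjusted totals ran from 905897 to 1119703. The numbers in the sample titles form 4 runs, a lower and a higher run within each diet, and the labels do not say what they mark. On HFD the lower run held 3 controls and 1 mutant and the higher run 1 control and 3 mutants. On chow, the lower run held 2 controls and 1 mutant, and the higher run 2 controls and 3 mutants. No run spanned both diets, so diet and run cannot be told apart. One mutant on chow, replicate 2, stood apart: 11 acute-phase genes summed to 85530 there against at most 17433 in the other libraries, and 5 neutrophil markers to 10661. Chow mutant replicate 1 had the next highest neutrophil sum of 3298, and the other 14 libraries had at most 604. All 4 chow mutants (48.3 to 10661) lay above all 4 chow controls (14.2 to 39.7) in this sum. By genotype on chow, 5 of 5 neutrophil markers and 4 of 11 acute-phase genes had an unadjusted p under 0.05 (limma). None of these was called, and 6.08% of all genes met the same mark. In bulk liver, fewer cells of a type and less RNA per cell cannot be told apart.

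The 10 genes were unequal in level and in spread. Gnmt, which consumes S-adenosylmethionine by methylating glycine, had the highest mean of 1899 ± 504 adjusted TPM (SD, n = 16 libraries), followed by Mat1a (1408 ± 173), the liver form of S-adenosylmethionine synthetase, and Bhmt (1314 ± 957), betaine-homocysteine methyltransferase. Pemt (558 ± 66.4), Cbs (379 ± 86.3), Shmt1 (284 ± 43.8), Mthfd1 (139 ± 13), Cth (116 ± 57.1), Ahcy (76.5 ± 23.4) and Chdh (54.6 ± 9.82) followed. The ranges of neighbours in this order overlapped, except for Shmt1 and Mthfd1. The coefficient of variation over the 16 libraries was 72.9% for Bhmt and 49.3% for Cth, against 9.34% for Mthfd1, 11.9% for Pemt and 12.3% for Mat1a. Together the 10 genes made up between 0.471% and 1.16% of the adjusted total of a library.

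**Figure D1:**
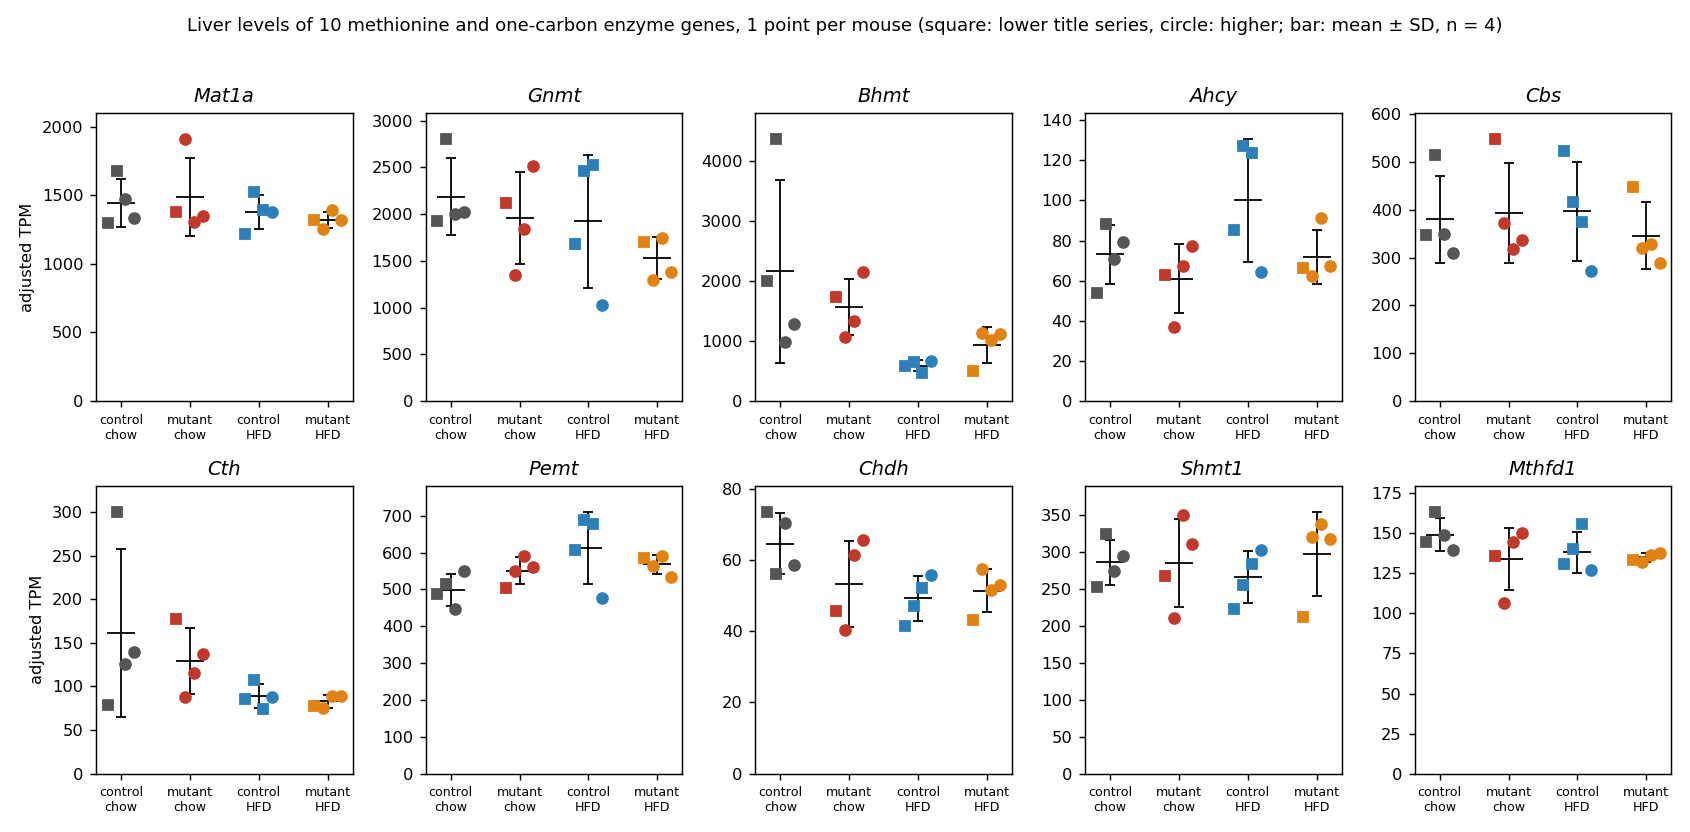
Adjusted TPM (linear axes from 0) of the 10 genes in each liver, by group of 4; squares mark the lower and circles the higher run of title numbers, and bars are mean ± SD. For Bhmt the 4 HFD controls lie between 466 and 671, under all 4 chow controls (984 to 4360).

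Bhmt showed the widest diet difference. The gene (ENSMUSG00000074768) lies at chr13:93616675-93637961 on the minus strand (GENCODE on GRCm38, as are the gene positions that follow). Its enzyme moves a methyl group from betaine to homocysteine. In chow controls, replicates 1 to 4, it stood at 2005, 4360, 984 and 1285 adjusted TPM, and in HFD controls at 582, 646, 466 and 671. The groups did not overlap. The difference was -1.64 on the log2 scale (SE 0.386), or 3.11-fold lower on HFD, with an unadjusted limma p of 0.000681 that did not pass after Benjamini-Hochberg adjustment over all 12704 genes (adjusted p = 0.172). An exact two-sided permutation test on Bhmt alone gave an unadjusted p of 0.0286. Any 2 groups of 4 that do not overlap give this value, the smallest possible, so it only restates the separation. Of 40 such tests on the 10 genes, 2 were under 0.05. In mutants, Bhmt was at 1728, 1066, 1326 and 2145 on chow and at 497, 1132, 1008 and 1114 on HFD. These groups overlapped, with a difference of -0.76 (adjusted p = 0.747, limma). Without HFD control replicate 4 the difference in controls was -1.70 and was called (adjusted p = 0.0331, limma). That fit called 928 genes by diet in controls, where the fit of all libraries called none. Without chow control replicate 2, the highest library, the Bhmt difference was -1.22 (adjusted p = 0.353). A fit that weighted libraries by their noise gave a Bhmt difference of -1.60 (adjusted p = 0.00895, limma) and called 17.8% of all genes. Its lowest weight, 0.228, went to HFD control replicate 4, so it is not a check separate from leaving that library out. Bhmt has a near-identical copy, Gm5096, whose transcript is 99.4% identical and which stood at a mean of 0.36 adjusted TPM, and a pseudogene, Bhmt-ps1 (98.9% identical), not analysed here, with which reads could be shared.

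The sequence around the Bhmt start is shown because Bhmt had the widest diet difference, and that of Cbs because, of the 10 genes, it alone was called in the fits without re-weighting, rescaling or a library left out (between title runs within HFD). Both are RefSeq windows from 250 bases before to 50 bases after the annotated start (GRCm38.p6), on the minus strand. Capitals mark, on either strand, the CCAAT box, the GC box core GGGCGG, the E-box CACGTG and the half-site AGGTCA.
Bhmt, chr13:93637709-93638008: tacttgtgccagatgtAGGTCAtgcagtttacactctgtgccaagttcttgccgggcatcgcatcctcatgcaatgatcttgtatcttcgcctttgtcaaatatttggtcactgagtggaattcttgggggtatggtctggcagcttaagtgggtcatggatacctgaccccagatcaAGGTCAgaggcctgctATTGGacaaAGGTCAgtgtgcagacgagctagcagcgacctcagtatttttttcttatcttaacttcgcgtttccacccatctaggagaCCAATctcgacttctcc
Cbs, chr17:31637156-31637455: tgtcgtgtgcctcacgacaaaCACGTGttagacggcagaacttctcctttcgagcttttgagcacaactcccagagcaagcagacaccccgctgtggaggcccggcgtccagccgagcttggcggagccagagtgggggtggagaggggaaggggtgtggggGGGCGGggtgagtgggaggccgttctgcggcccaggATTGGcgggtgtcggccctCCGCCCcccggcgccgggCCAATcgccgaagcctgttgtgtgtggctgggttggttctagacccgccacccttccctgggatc

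The table of start-site windows held 8 of the 10 genes (all but Mat1a and Cth). These genes had 11 windows, since Pemt and Chdh have more than 1 start. CCAAT was present in 7 of the 11, each of a different gene, against 37.4% of 32851 windows in the whole table, and GGGCGG in 5 of 11 against 35.7%. TATAAA was in none of the 11 (13.6% of all windows), and CACGTG only in that of Cbs (7.15% of all windows). AGGTCA, a half-site bound by many nuclear receptors and added to the search after the Bhmt window had been read, was present in 4 of the 11 windows (Bhmt, Ahcy, Gnmt and Mthfd1), against 16.3% of all windows. Bhmt held 3 copies, and 0.183% of all windows held at least 3 copies. The motif and this cut-off were both taken from the Bhmt window, so these shares do not test how unusual it is. The nearer copies began 72 and 47 bases before the start, and the CCAAT box between them is read on the opposite strand. A match in letters is a description and not a bound site.

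Among the other enzymes of the betaine arm, Chdh (ENSMUSG00000015970, chr14:30009023-30040527, plus strand), the mitochondrial choline dehydrogenase that makes the betaine precursor, was lower in every HFD control than in any chow control. Its values were 73.5, 56.1, 70.3 and 58.5 adjusted TPM in chow controls and 41.6, 47.2, 52.2 and 55.9 in HFD controls. The highest HFD value was only just under the lowest chow value. The difference was -0.39 (SE 0.157), 1.31-fold lower on HFD, with an adjusted p of 0.324 by limma. The exact permutation p, 0.0286 without adjustment, again only restates the lack of overlap. It was called with library weights (-0.42, adjusted p = 0.0334), in the fit that called 17.8% of all genes. Chdh was at 45.8, 40.3, 61.3 and 65.5 in chow mutants and at 43.2, 57.5, 51.7 and 53.1 in HFD mutants, so the mutants overlapped between diets. Exons of Chdh overlap those of Cacna1d on the opposite strand over 589 bases. Cacna1d was at a mean of 1.42 adjusted TPM, and whether strand was used in the quantification is not stated.

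Pemt, which methylates phosphatidylethanolamine to phosphatidylcholine, stood at 488, 514, 446 and 549 adjusted TPM in chow controls and 607, 688, 679 and 478 in HFD controls. HFD control replicate 4, from the higher title run, lay within the chow range and the other 3 lay above it. The difference was 0.28 (SE 0.121, adjusted p = 0.338, limma). Without replicate 4 it was 0.40 (adjusted p = 0.0331), in the fit that called 928 genes. With library weights, where replicate 4 had the lowest weight, it was 0.41 (adjusted p = 0.00971), in the fit that called 17.8% of all genes. With columns rescaled to the same total, however, it was 0.11, with an unadjusted p of 0.308 (adjusted p = 0.591). In mutants Pemt ran from 505 to 591 on chow and from 534 to 589 on HFD.

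Transsulfuration begins with Cbs, cystathionine beta-synthase, and ends with Cth, cystathionine gamma-lyase. Cth was at 78.6, 300, 125 and 140 adjusted TPM in chow controls, and at 86.2, 108, 74.7 and 88 in HFD controls. One chow control, replicate 2, was far above the others and another lay inside the HFD range. The difference of -0.68 (SE 0.3, adjusted p = 0.35, limma) was -0.33 without replicate 2 (adjusted p = 0.625) and -0.97 without replicate 1 (adjusted p = 0.298). In mutants Cth was at 177, 88, 115 and 138 on chow and at 77.7, 75.9, 89.6 and 89.3 on HFD, a difference of -0.59 (adjusted p = 0.747). Cbs did not separate by diet in either genotype, with means of 380 ± 91.4 and 397 ± 104 in chow and HFD controls and 393 ± 105 and 346 ± 69.7 in chow and HFD mutants (SD, n = 4).

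The diet comparison in controls therefore held 4 of 10 genes at an unadjusted p under 0.05 (Bhmt, Chdh and Cth lower on HFD, Pemt higher), and 12.9% of all genes met the same mark. None of the 10 was called after adjustment, nor was any gene in the table (percent called 0). Bhmt and Chdh were the 2 of 10 with no overlap between the groups, against 6.36% of all genes. In mutants, where 0% of genes were called, none of the 10 reached an unadjusted p under 0.05 or separated without overlap, against 6.86% and 3.53% of all genes. The median difference over the 10 genes was -0.11 in controls and -0.09 in mutants, and over all genes it was -0.01 in both.

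**Figure D2:**
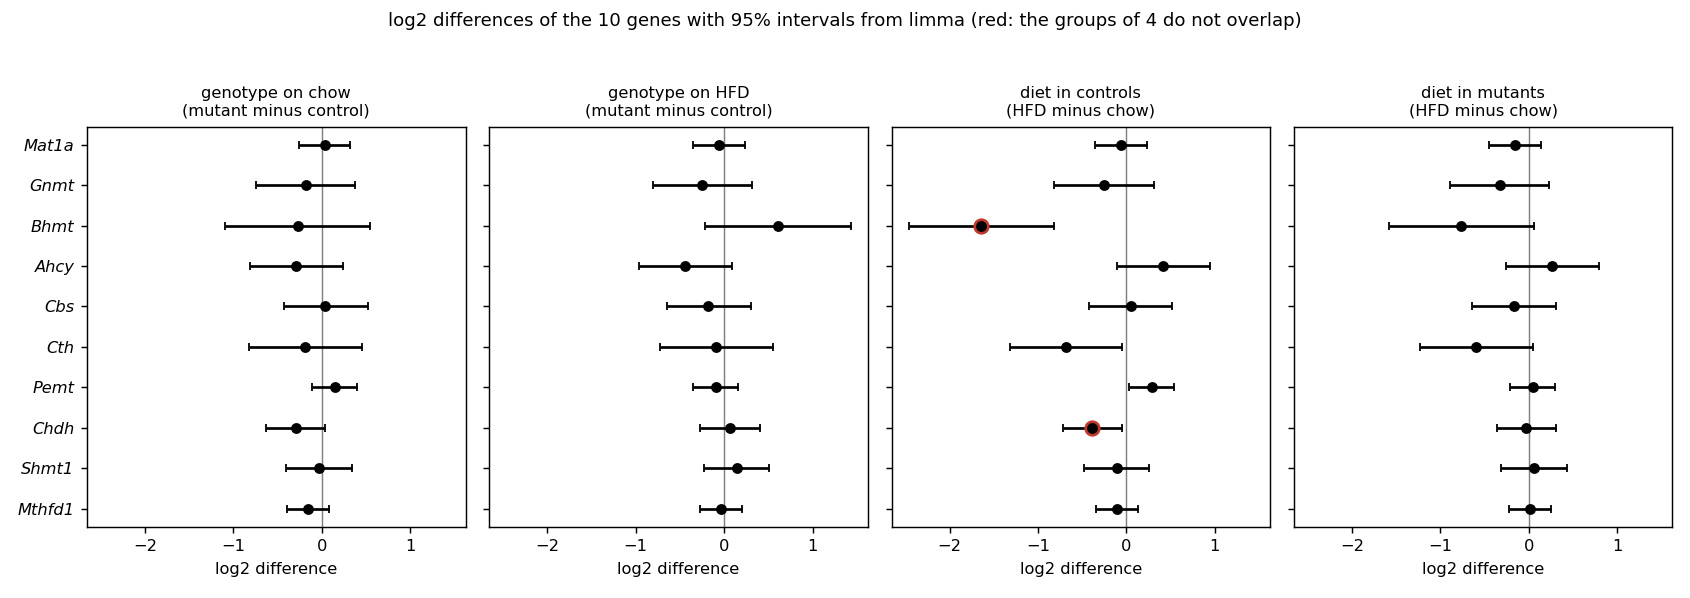
Differences (log2) of the 10 genes in the 4 comparisons of groups, with 95% intervals from limma. Larger red points mark genes whose groups of 4 do not overlap. Red points appear only for Bhmt (-1.64) and Chdh (-0.39) in the diet comparison of controls.

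Whether the diet difference depended on genotype was tested as an interaction. It was 0.87 for Bhmt (95% interval -0.29 to 2.04), 0.36 for Chdh (-0.12 to 0.83) and -0.24 for Pemt (-0.60 to 0.12), each with an adjusted p of 0.895 by limma. None of the 10 genes reached an unadjusted p under 0.05, against 4.21% of all genes. With the title run as a term these were 0.30, 0.24 and -0.10. Without chow control replicate 2 the Bhmt value was 0.46, the lowest with any library left out, and the highest was 1.17. Different responses in the genotypes were therefore not shown for any of the 10, and these intervals leave room for differences of either sign.

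Loss of the receptor under Nkx2-1Cre was compared within each diet, and none of the 10 genes was called, reached an unadjusted p under 0.05 or separated without overlap. Of all genes, on chow 0.0236% were called, 6.08% reached an unadjusted p under 0.05 and 3.05% did not overlap, and on HFD these shares were 0.0157%, 8.6% and 2.69%. On chow, the differences of the 10 genes ran from -0.29 to 0.14 in log2. At the ends of that range were Chdh (-0.29, adjusted p = 0.845, limma), Ahcy (-0.29) and Pemt (0.14). Without chow mutant replicate 2, the library with the high acute-phase and neutrophil sums, Ahcy differed by -0.06 and Chdh by -0.17. Neutrophil sums separated the chow groups without that library too, and their part in these differences was not tested. On HFD they ran from -0.44 for Ahcy (adjusted p = 0.599) to 0.61 for Bhmt (95% interval -0.22 to 1.43, adjusted p = 0.629). The HFD mutants in the higher title run had Bhmt at 1132, 1008 and 1114, above all 4 HFD controls, and the mutant in the lower run, at 497, lay within the control range. With the title run as a term in the fit, the Bhmt genotype difference on HFD was 0.26.

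Gnmt was at 1676, 2465, 2529 and 1024 adjusted TPM in HFD controls and at 1699, 1300, 1741 and 1384 in HFD mutants. The lowest value of all 16 libraries was that of HFD control replicate 4, in the higher run. The difference between genotypes on HFD was -0.25 (adjusted p = 0.746, limma), and with the title run as a term it took the opposite sign (0.08). For Cbs, at -0.18 (adjusted p = 0.794), the same term also turned the sign (0.12). A fit that weighted libraries by their noise called Gnmt (-0.57, adjusted p = 0.0311) and Ahcy (-0.62, adjusted p = 0.0215) on HFD, and 30.9% of all genes with them. That fit gave weights of 0.228 and 0.329 to HFD control replicate 4 and HFD mutant replicate 1, the libraries whose title run differs from that of the rest of their group.

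Within HFD and with group in the model, 25.2% of all genes were called between the higher and the lower title run, a larger share than in any comparison of groups with the same fit settings, and of the 10 genes only Cbs was (1 of 10). The number of genes called, 3197, was 715 without HFD control replicate 4 and 1862 without HFD mutant replicate 1, each the only library of its genotype in its run. Summed markers of several cell types also stood apart between the runs. The 6 hepatocyte markers summed to 57512 to 72808 adjusted TPM in the lower and 75368 to 99027 in the higher run. No single hepatocyte marker was called, and the median difference of that list was -0.19. The 5 red cell markers summed to 3689 to 4277 adjusted TPM in the lower and 1028 to 2730 in the higher run, the 5 endothelial markers to 108 to 120 and 129 to 148, and the 5 stellate cell markers to 136 to 149 and 176 to 217. The 11 acute-phase genes summed to 6229 to 17433 in the lower and 4605 to 5551 in the higher run. Of 10 pericentral genes 2 were called higher (median difference of the list 0.49) and of 10 periportal genes 2 lower (median -0.40) in the higher run. Of all genes 13.5% were called higher and 11.6% lower, and the ranges of the pericentral and periportal sums overlapped between the runs. The pericentral median was also 0.46 by genotype on HFD, with 6 of 10 at an unadjusted p under 0.05 (8.6% of all genes). By diet in mutants it was 0.39, with 4 of 10 (6.86% of all genes). The periportal medians there were -0.25 and -0.09, with 0 of 10 in each, and no gene of either list was called. None of these marker genes was at 0 throughout a run, and their part in the run differences of Cbs and the genes that follow was not tested. At an unadjusted p under 0.05 there were 4 of 10 (Cbs, Gnmt, Shmt1 and Pemt), against 37.8% of all genes. The gene (ENSMUSG00000024039) lies at chr17:31608894-31637238 on the minus strand. Cbs was at 523, 416, 375 and 447 adjusted TPM in the lower run (HFD control replicates 1 to 3 and mutant replicate 1), and at 273, 320, 329 and 288 in the higher run (control replicate 4 and mutant replicates 2 to 4). The runs did not overlap. The difference was -0.59 (SE 0.158, adjusted p = 0.0159, limma), and it was not called without HFD control replicate 4 (-0.52, adjusted p = 0.197), without HFD mutant replicate 1 (-0.67, adjusted p = 0.0718) or with columns rescaled to the same total (-0.44, adjusted p = 0.0745).

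Gnmt stood at a mean of 2092 ± 468 adjusted TPM in the lower and 1362 ± 296 in the higher HFD run (SD, n = 4), a difference of -0.65 that was not called (adjusted p = 0.0815, limma) except without HFD mutant replicate 1 (-1.09, adjusted p = 0.0469). Without HFD control replicate 4 it was -0.22 (adjusted p = 0.75). Shmt1, the cytosolic serine hydroxymethyltransferase, lay between 212 and 283 in the lower run and at 303 or above in the higher, with a difference of 0.44 (adjusted p = 0.0747). It was called with columns rescaled to the same total (0.59, adjusted p = 0.025), in a fit that called 3541 genes, and without chow mutant replicate 2 (adjusted p = 0.0232). With median-of-ratios size factors the Shmt1 difference was 0.39 (adjusted p = 0.139), and its lowest value with a single library left out was 0.26. Pemt (-0.26, adjusted p = 0.114) was lower in the higher run and Bhmt (0.69, adjusted p = 0.16) higher, neither called. Without HFD control replicate 4 these were -0.06 for Pemt and 1.12 for Bhmt, and without HFD mutant replicate 1 they were -0.46 and 0.26. Rescaled columns gave -0.11 for Pemt. On chow, where 0% of genes were called between runs, Cbs differed by -0.50 (adjusted p = 0.247) and Bhmt by -0.91 (adjusted p = 0.293), the 2 of 10 at an unadjusted p under 0.05, against 11.6% of all genes.

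**Figure D3:**
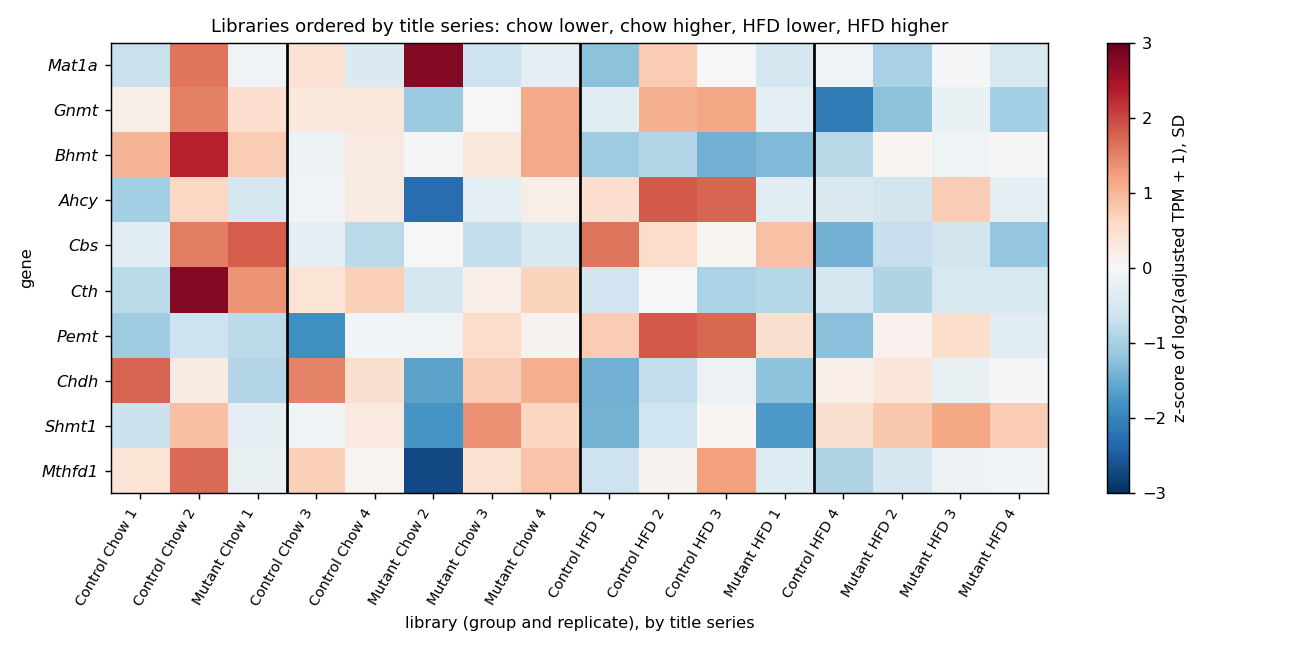
Values of the 10 genes as z-scores of log2(adjusted TPM + 1) over the 16 libraries, in SD, with libraries ordered by title run and black lines between runs. Cbs is above its mean in the lower HFD run except replicate 3 of the controls, which is near the mean, and below it in all 4 libraries of the higher HFD run.

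Ahcy, which hydrolyses S-adenosylhomocysteine, has a retrogene, listed in the table under the symbol Ahcyl (ENSMUSG00000048087), whose transcript is 99.7% identical over 2083 bases with 6 mismatches. Short reads can be divided between such copies, and the Ahcy row held between 4.28% and 8.24% of the summed signal. The row labelled Ahcy stood at a mean of 76.5 and the retrogene row at 1157 adjusted TPM, so the level of Ahcy and its place in the order of levels are uncertain. The pair summed to between 857 and 1869. Ahcy alone was at 53.9, 88.2, 71 and 79.3 in chow controls and at 85.2, 127, 124 and 64.4 in HFD controls. The difference was 0.42 (adjusted p = 0.487, limma), and it was called with library weights (0.64, adjusted p = 0.0388), where 17.8% of all genes were. For the pair this difference was 0.14 (adjusted p = 0.793). Between genotypes the pair differed by -0.27 on chow (adjusted p = 0.947) and -0.29 on HFD (adjusted p = 0.654).

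**Figure D4:**
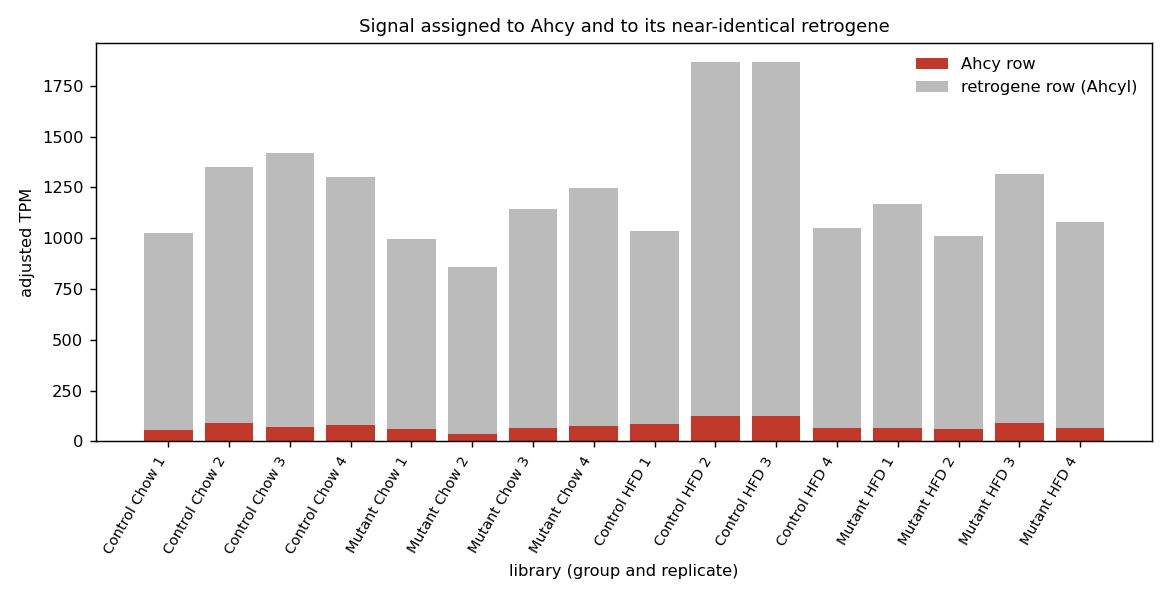
Adjusted TPM (stacked bars from 0) of the Ahcy row and its retrogene row in each of the 16 livers. The Ahcy row is at most 8.24% of the bar in any library.

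The group means of Mat1a, Shmt1 and Mthfd1 lay close together. Group means (SD, n = 4) of Mat1a were 1445 ± 172 and 1488 ± 284 adjusted TPM in chow controls and mutants, and 1379 ± 126 and 1322 ± 58.1 in HFD controls and mutants. Those of Shmt1 were 286 ± 30.3, 285 ± 59.6, 266 ± 34.9 and 297 ± 57.1 in the same order. Mthfd1, the trifunctional enzyme that interconverts folate one-carbon units, was at 149 ± 10.2, 134 ± 19.5, 138 ± 12.9 and 135 ± 2.64. Chow mutant replicate 2, the library with the highest acute-phase sum, held the lowest values of Ahcy (36.7), Chdh (40.3), Shmt1 (211) and Mthfd1 (107) and the highest of Mat1a (1911) among the 16 livers. The part of the acute-phase signal in these values was not tested. Chow control replicate 2 held the highest values of Gnmt (2801), Bhmt, Cth and Mthfd1 (163).

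Close relatives of the 10 genes were at different levels in the same livers. The S-adenosylmethionine synthetase of most other tissues, Mat2a, had a mean of 25.4 adjusted TPM, and Bhmt2, which uses S-methylmethionine as methyl donor, 128. Shmt2, the mitochondrial serine hydroxymethyltransferase, was at 183, and the mitochondrial folate enzymes Mthfd2 and Mthfd1l were at 1.85 and 1.29. The AHCY-like genes Ahcyl1 and Ahcyl2 were at 45 and 5.52.

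A wider list of 74 genes around these pathways (methionine cycle, betaine and choline, transsulfuration and cysteine, folate, glycine and serine, methyltransferases, cobalamin) had 72 members among the genes tested. None was called by genotype on either diet, by diet in either genotype or in the interaction. Between the HFD title runs 5 were higher and 7 lower in the higher run, against 13.5% and 11.6% of all genes. The 5 with the smallest adjusted p are given here. Sdsl, a serine dehydratase-like enzyme, was at 15.6 ± 2.49 adjusted TPM in the lower and 6.2 ± 0.925 in the higher run (SD, n = 4). It fell by 1.16 on the log2 scale (adjusted p = 0.000552, limma), and the call was kept when any single library was left out. Cdo1, which oxidises cysteine, was at 1482 ± 203 and 1051 ± 125 (-0.64, adjusted p = 0.00401). Choline kinase beta, Chkb, was at 58.7 ± 3.65 and 35.6 ± 3.16 (-0.71, adjusted p = 0.00455), and Mat2a at 32 ± 1.9 and 20.9 ± 0.31 (-0.61, adjusted p = 0.00877). Pcyt1a, which makes CDP-choline, was at 22.6 ± 2.3 and 31.6 ± 2.33 (0.50, adjusted p = 0.00678). With single libraries left out, the highest adjusted p was 0.0565 for Cdo1, 0.0922 for Chkb, 0.0981 for Mat2a and 0.147 for Pcyt1a (without HFD control replicate 4 for the former 3, without HFD mutant replicate 1 for Pcyt1a). Without HFD mutant replicate 1, Cdo1 (0.0523) and Mat2a (0.0844) were not called either.

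**Figure D5:**
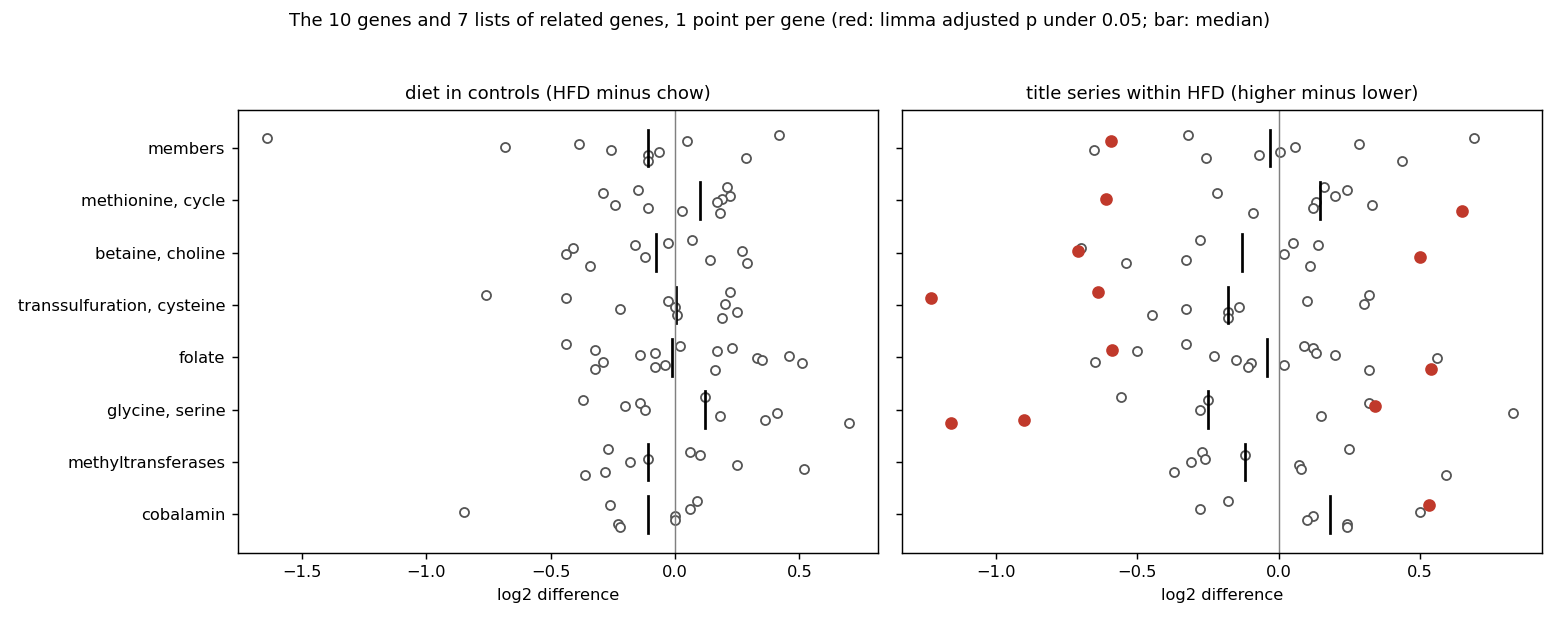
Differences (log2) of the 10 genes and of 7 lists of related genes by diet in controls (left) and between the HFD title runs (right); each point is a gene, filled red where the limma adjusted p was under 0.05, and bars are medians. No point is filled on the left, and on the right 1 of the 10 genes and 12 listed genes are.

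As a description of likeness, the genes whose log2 levels followed the mean z-score of the 10 most closely over the 16 libraries were Slc6a12 (Pearson's r = 0.92), which encodes a betaine transporter, Ass1 (0.91), a urea cycle enzyme, Qdpr (0.90), dihydropteridine reductase, Cbr1 (0.90), a carbonyl reductase, and Aldh4a1 (0.86), which acts in proline breakdown. The 10 genes did not follow a single pattern that this mean would stand for. Over the same libraries 32 of their 45 pairs correlated positively, with a median r of 0.18 (-0.52 to 0.75). The 16 points share 4 groups and 4 title runs, and genes were ranked over the whole table, so no p is given.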

How the data were processed

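Liver RNA-seq of 16 females was analysed at gene level. The authors quantified reads with kallisto against mm10 transcripts and processed them with sleuth, and the deposited values, a signal with no read counts, were read as TPM summed per gene and adjusted by size factors; no file header states this unit, which was inferred from the study's methods and from column totals near those of TPM. Thus depth per library is unknown and no counting interval can be given. The tool versions and the annotation release are not given in the sources used here. Genes at or above 1 in at least 4 libraries were kept (12704 of 15544). log2(value + 1) was fitted with limma 3.58.1 (R 4.3.3; mean-variance trend, 4 group means, Benjamini-Hochberg over all genes, threshold 0.05), and the code was tested on simulated data. Fold changes on this scale are smaller than true for low genes. Genotype was compared within diet, diet within genotype, the interaction, and title runs within each diet beside group. Single genes were also tested by exact two-sided permutation on log2 values. Sleuth's likelihood ratio test needs resampled transcript estimates, which a gene table does not hold, so limma took its place. The labels do not say that replicates came from separate litters or cages, and replicates were numbered in accession order. Transcript identity was measured with blastn 2.17.0 on GENCODE transcripts of GRCm38. The members and lists were chosen with earlier results of these data known. Apart from the members, genes were named by smallest adjusted p among listed pathway genes past the threshold (at most 5 a comparison), or by likeness; near relatives were named by family. Alternatives covered scaling, pseudocount, filter, library weights, title run, the groups fitted and each library left out; summing Ahcy with its retrogene was added after the data had been seen.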

Additional observations from a re-analysis of the deposited data

Results flagged for a closer look

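In 3 of 40 groups of 4 livers (10 genes in 4 groups), 1 library lay far from the other 3 by Dixon's test, where chance alone flags about 2 of 40. Mat1a was at 1911 adjusted TPM in chow mutant replicate 2, against 1305 to 1382 in the other chow mutants. Gnmt was at 2801 in chow control replicate 2, against 1923 to 2019 in the other chow controls. Shmt1 was at 212 in HFD mutant replicate 1, the only HFD mutant in the lower title run, against at least 317 in the other HFD mutants.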

How the results depend on the processing

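No paired analysis was possible because the labels give no replicate numbers that tie livers of different groups together. With columns rescaled to the same total, which moved the median of all genes by -0.16 for diet in controls, 2 genes were called for that comparison and 4 tests of a single gene (10 genes in 4 comparisons) had a permutation p under 0.05, against 2. With no filter on low values, 2 genes were called between chow title runs; with the filter at 5, 1 gene by genotype on chow. Library weights called 6 genes by genotype on chow, 3926 by genotype on HFD, 2264 by diet in controls and 9 by diet in mutants; the title run as a term left 1 by genotype on chow, and fitting only the groups compared gave 6, 1, 4 and 1 in the same order. With single libraries left out, calls ran from 1 to 14 by genotype on chow (most without chow mutant replicate 3 or HFD mutant replicate 1), 2 to 141 by genotype on HFD (most without HFD mutant replicate 1), 0 to 928 by diet in controls (most without HFD control replicate 4), 0 to 2 by diet in mutants and between chow runs, 715 (without HFD control replicate 4) to 3723 between HFD runs, and 0 in the interaction. Of the named differences, Gnmt changed sign for diet in controls with library weights (0.04) and without HFD control replicate 4 (0.02; lowest with a library left out -0.42), and Gnmt (0.08) and Cbs (0.12) by genotype on HFD with the title run as a term. Over all 70 differences of the 10 genes, 35 changed sign in at least 1 alternative, none with a main value over 0.40 in size, and 9 were called in at least 1. Depth is unknown, so what counting error adds cannot be given.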
